A study of Mus musculus with 13 samples.

Results

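The genes followed here carry out the unfolded protein response and protein folding in the endoplasmic reticulum (ER). The list held 36 genes. Of these, 35 had a probe set annotated to no other gene, among 12394 genes named on the array, and Sec61g had none. Each gene was read on its probe set with the highest mean over the 13 arrays. A filter on dim genes kept 34 of the 35 for testing, out of 7436 genes tested, and left out Ern1. The cells were mouse primary keratinocytes, the main cell type of the epidermis, grown in culture. Every culture, the untreated one included, carried a retroviral fusion of the p63 isoform DNp63alpha to an estrogen receptor domain; such fusions are switched on by tamoxifen. The course had 12 arrays, spaced 20 min apart between 20 and 240 min of tamoxifen, and 1 further array came from untreated cells. The strain, sex and age of the animals, and whether each array came from its own culture, are not given in the sources used here. The p-values therefore measure only the spread between these arrays.

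Proteins that enter the ER fold with the help of chaperones such as BiP, the product of Hspa5, and of enzymes that join cysteines or isomerise prolines. When unfolded proteins accumulate, the sensors in the ER membrane, ATF6, IRE1 (Ern1) and PERK (Eif2ak3), release BiP and signal to the nucleus. ATF6 is cut and becomes a transcription factor, IRE1 splices the Xbp1 transcript so that it encodes an active factor, and PERK slows translation and favours ATF4. ATF6 and XBP1 raise chaperones, translocation factors and the proteins that send misfolded proteins back to the cytosol for degradation (ERAD). In epidermis, parts of this response are known to be switched on as keratinocytes differentiate.

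The promoters are shown because these genes are known for a shared DNA element. The ER stress response element (ERSE) reads CCAAT, any 9 bases, then CCACG, and is bound by NF-Y at its first part and by ATF6 at its last. Its variant ERSE-II reads ATTGG, any base, then CCACG. Both were searched on both strands in RefSeq promoters of assembly GRCm38.p6, from 250 bases before to 50 bases after each annotated start. Both motifs hold CCACG, and no base of a match to one was part of a match to the other in these genes. Promoters were found for 29 of the 35 genes, and the entries missing from the table were those of Atf6, Derl1, Hyou1, Manf, Ostc and Sec61a1. An exact ERSE was present in 8 of the 29 genes (27.6%), against 13 of the 6065 tested genes with a promoter in the table (0.214%), a count that includes those 8. An exact ERSE-II was present in 2 of the 29 (6.9%), against 0.115% of those tested genes. The letters TGACGTGG, a site at which ATF6 and XBP1 are known to bind and which holds CCACG on its other strand, were in 0 of the 29 genes and in 1.15% of the tested genes. A match describes letters in this window and is no evidence of binding, and many of these genes were put on the list because they are known targets. The next 3 promoters are given whole, in lower case with the fixed letters of the motifs in capitals. They are the promoter of Hspa5 (chr2:34771840-34772139, plus strand), which fell, of Hsp90b1 (chr10:86705395-86705694, minus strand), which has 2 ERSE matches, and of Herpud1 (chr8:94386179-94386478, plus strand), which has an ERSE-II.
Hspa5: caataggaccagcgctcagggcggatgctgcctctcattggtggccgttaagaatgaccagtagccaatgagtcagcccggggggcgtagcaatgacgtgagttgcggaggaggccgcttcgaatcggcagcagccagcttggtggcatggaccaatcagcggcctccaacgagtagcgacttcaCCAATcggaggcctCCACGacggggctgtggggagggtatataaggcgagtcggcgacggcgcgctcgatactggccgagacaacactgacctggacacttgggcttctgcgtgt
Hsp90b1: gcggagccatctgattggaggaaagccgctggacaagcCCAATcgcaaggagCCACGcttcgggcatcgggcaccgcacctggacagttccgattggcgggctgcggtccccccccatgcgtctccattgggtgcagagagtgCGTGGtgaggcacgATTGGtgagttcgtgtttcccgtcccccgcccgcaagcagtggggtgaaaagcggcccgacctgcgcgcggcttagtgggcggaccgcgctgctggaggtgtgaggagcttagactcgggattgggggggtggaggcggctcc
Herpud1: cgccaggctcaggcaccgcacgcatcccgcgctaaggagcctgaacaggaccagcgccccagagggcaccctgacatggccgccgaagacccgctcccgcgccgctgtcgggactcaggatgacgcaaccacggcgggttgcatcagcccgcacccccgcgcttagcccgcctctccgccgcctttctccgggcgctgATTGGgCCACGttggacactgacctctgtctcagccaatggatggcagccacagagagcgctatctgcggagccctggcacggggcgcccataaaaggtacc
In Hspa5 the ERSE began 65 bases before the start, in Hsp90b1 the matches began 212 and 107 bases before it, and in Herpud1 the ERSE-II began 52 bases before it. The remaining ERSE matches are given alone, read along the motif from 5′ to 3′ whichever strand holds it, with the fixed letters in capitals.
Calr: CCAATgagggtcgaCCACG
Canx: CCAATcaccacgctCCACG
Creld2: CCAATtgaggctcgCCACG
Dnajc3: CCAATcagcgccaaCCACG
Pdia6: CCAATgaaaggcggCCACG
Syvn1: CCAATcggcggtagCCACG
The ERSE-II of Dnajb11 lay 7 bases after the annotated start. Of the 8 genes with an ERSE, Hspa5 and Dnajc3 fell over the course and Calr, Canx, Creld2, Hsp90b1, Pdia6 and Syvn1 did not pass the test. Dnajb11 and Herpud1, with an ERSE-II, did not pass either. On that test, the linear trend described below, 17.6% of all tested genes fell and 22.3% rose.

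Keratinocyte identity was checked on 10 markers, all above the filter on dim genes: Krt5 read 14556 to 16313 and Krt14 17874 to 18602 intensity units over the 13 arrays. Melanocyte genes were also present, with Dct at 2194 to 2659, while the 5 endothelial markers were all below the filter. Of 4 plasma cell markers Jchain and Cd79a were dim, at most 83 and 112, while Sdc1 read 7966 to 8904 and Prdm1 252 to 589. Keratinocytes are known to express Sdc1 too. The summed intensity of the keratinocyte markers was 70531 to 73727 at 180 to 240 min and 69639 to 74056 at 20 to 80 min. That of the 6 melanocyte markers was 6343 to 6671 and 6272 to 7247 in the same windows. Fibroblast markers summed to 2424 to 2612 late and 2218 to 2507 early, immune markers to 1409 to 1629 late and 1481 to 1704 early, and plasma cell markers to 8737 to 9035 late and 8615 to 9557 early. Most of the plasma cell sum was Sdc1, so that sum says little of plasma cells. On the linear trend described next 2 of 10 keratinocyte and 2 of 3 tested fibroblast markers rose, and 1 of 6 melanocyte, 1 of 2 tested immune and 1 of 2 tested plasma cell markers (Prdm1) fell. Their part in the results was not tested. As the samples are bulk RNA, fewer cells of a type and less RNA per cell cannot be told apart. The ratio of 3' to 5' Gapdh signal, a measure of RNA integrity, lay between 0.899 and 0.937 in all 13 arrays. The same ratio for b-actin ranged more widely, from 1.16 to 1.27, with 1.17 to 1.19 at 180 to 240 min and 1.16 to 1.26 at 20 to 80 min. With earlier results of these arrays known, the 200 and 220 min arrays and the step between 60 and 80 min were looked at separately.

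The first question was which of the genes rose or fell across the 4 h. A straight line was fitted to log2(intensity + 16) over the 13 arrays. The added 16 makes folds of dim genes too small. Of the 34 genes 6 fell and 5 rose (limma, adjusted p under 0.05 over all 7436 genes), and 23 did not pass. Without the 200 and 220 min arrays 2 rises were called, Sec61b and Ostc, and Fkbp2, Spcs2 and Ppib missed the threshold (adjusted p = 0.0659, 0.0609 and 0.0853). The 6 falls were still called there and Sel1l was called lower too (adjusted p = 0.0204), against 34.3% of all tested genes (17.5% higher, 16.8% lower). Over the 13 arrays the background was high: 39.9% of all tested genes passed, 17.6% downward and 22.3% upward, and the share here was 11 of 34 (32.4%). At an unadjusted p under 0.05 it was 14 of 34, against 49.5% of all tested genes. The median slope was -0.001 per hour over the 34 genes and 0.005 over all tested genes (log2 scale). Dnajb9, Ero1l, Atf6, Hspa5, Xbp1 and Dnajc3 fell. Sec61b, Fkbp2, Ostc, Spcs2 and Ppib, which serve protein entry, signal peptide removal, glycosylation and proline isomerisation, rose. The rises were smaller, between 1.09-fold and 1.26-fold over 4 h, than the falls, between 1.28-fold and 1.66-fold.

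**Figure D1:**
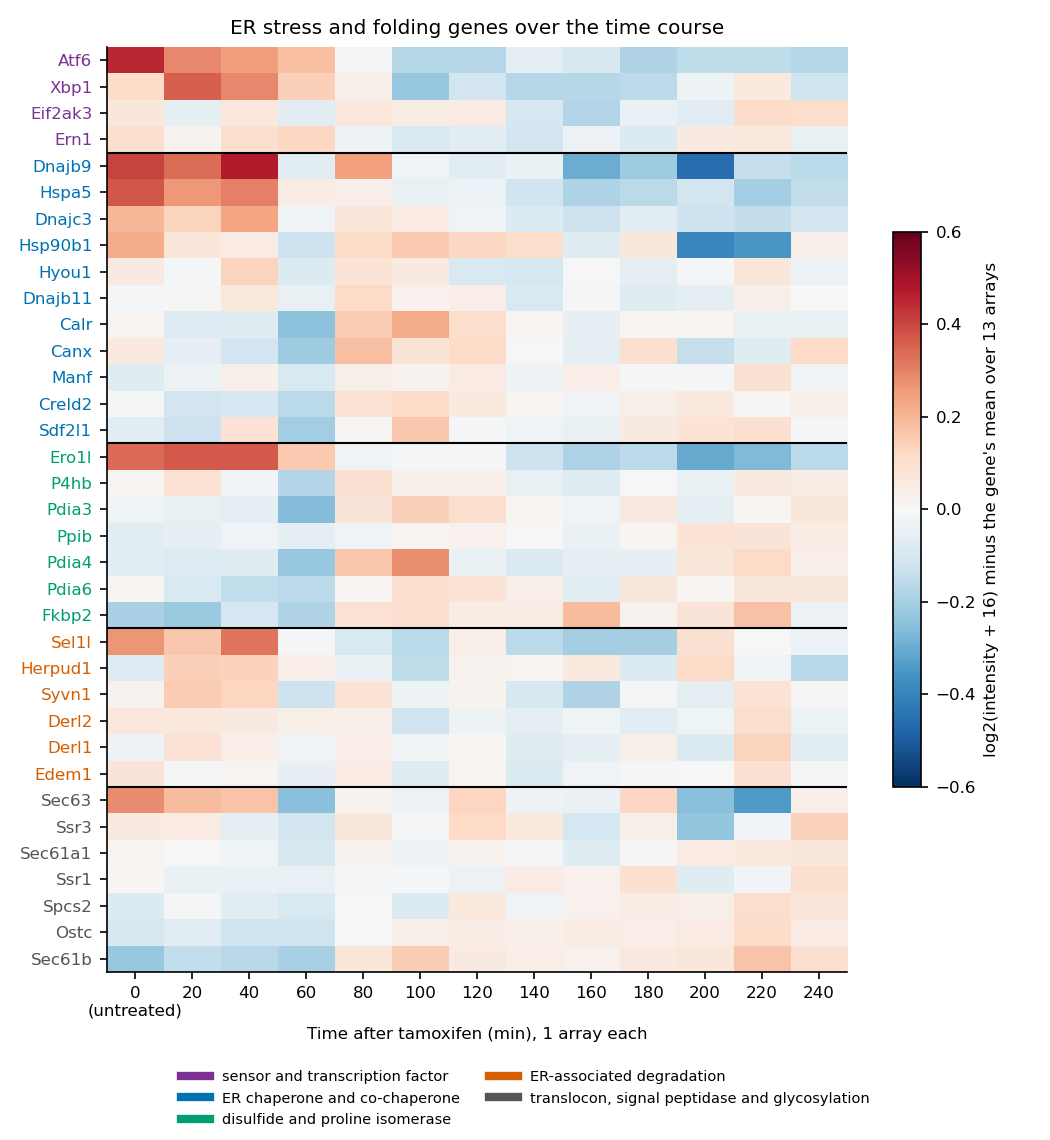
Heat map of 35 ER genes (rows, coloured and grouped by role) in 13 arrays (columns, minutes after tamoxifen), as log2(intensity + 16) minus each gene's mean. Atf6, Dnajb9, Hspa5 and Ero1l are high in the arrays up to 40 min and low from 100 min, Sec61b and Fkbp2 are low up to 60 min and higher after, and most chaperone and isomerase rows are bluer in the 60 min array than in the arrays beside it.

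**Figure D2:**
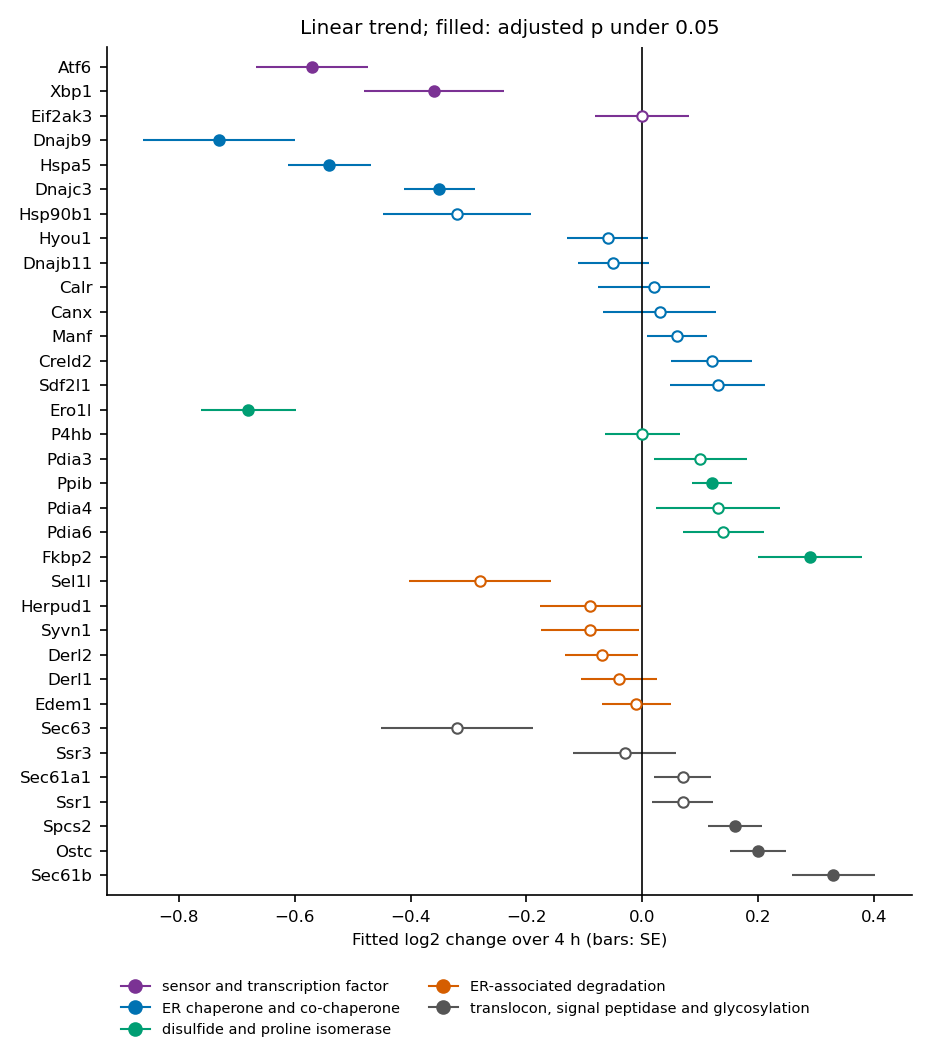
Fitted log2 change over 4 h with its SE (points and bars) for the 34 tested genes, by role, filled where the adjusted p was under 0.05. The falls reach -0.73 (Dnajb9) and the rises 0.33 (Sec61b), and no ERAD gene is filled.

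Among the 3 tested sensors and transcription factors, Atf6 and Xbp1 fell, and Eif2ak3 did not pass (66.7% called, against 39.9% of all tested genes). Atf6, the precursor of the ATF6 factor, read 297 intensity units in the untreated array, then 263, 256, 243 and 211 at 20 to 80 min, 187, 187, 204 and 198 at 100 to 160 min, and 186, 190, 190 and 187 at 180 to 240 min. Its level came down in the first 100 min and then stayed between 186 and 204. Over 4 h it fell 1.49-fold by the fitted line (log2 change -0.57 ± 0.0971, SE; adjusted p = 0.000492). Changes with an SE below are such log2 changes over 4 h, each from 13 arrays. The mean was 7.67 ± 0.0117 at 180 to 240 min and 8.01 ± 0.132 at 20 to 80 min (log2 level, SD, 4 arrays each; adjusted p = 0.00398), and the windows did not overlap. Atf6 was dim, at percentile 40.2 of mean level, just above the filter, and a single probe set reports it.

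Xbp1, whose spliced transcript encodes the IRE1-dependent factor, had another course. It read 1678 in the untreated array, then 1996, 1903, 1719 and 1589 at 20 to 80 min, 1325, 1435, 1380 and 1379 at 100 to 160 min, and 1394, 1521, 1619 and 1428 at 180 to 240 min. The 20 and 40 min arrays were the highest of the course and the 100 min array the lowest. Its line fell 1.28-fold (-0.36 ± 0.121, adjusted p = 0.0291), and this call was lost without the 20 min array (adjusted p = 0.105) or the 40 min array. Of its 4 probe sets 3 fell, and the remaining dim one changed by 0.03 ± 0.0874. Spliced and unspliced Xbp1 were not told apart here. Eif2ak3, which encodes PERK, read 340 in the untreated array, then 310, 339, 308 and 338 at 20 to 80 min, 334, 335, 300 and 284 at 100 to 160 min, and 314, 309, 350 and 349 at 180 to 240 min. Its fitted change was 0.00 ± 0.0810 (adjusted p = 0.999). Ern1, which encodes IRE1, was too dim to be tested, with 168 in the untreated array, then 159, 169, 172 and 153 at 20 to 80 min, 146, 149, 143 and 152 at 100 to 160 min, and 147, 163, 164 and 151 at 180 to 240 min. Among all 20393 single-gene probe sets its fitted change was -0.10 ± 0.0693 (adjusted p = 0.377).

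Of the 11 chaperones and co-chaperones 3 fell, 0 rose and 8 did not pass (27.3% called, against 39.9% of all tested genes). Hspa5, the BiP gene and the classical reporter of the response, read 6243 intensity units in the untreated array, then 5774, 5958, 4975 and 4922 at 20 to 80 min, 4681, 4711, 4439 and 4236 at 100 to 160 min, and 4304, 4462, 4190 and 4355 at 180 to 240 min. The 4 arrays up to 60 min were all above the 9 later ones. Its fall was 1.46-fold (-0.54 ± 0.0712, adjusted p = 0.000129). The log2 level was 12.08 ± 0.0376 at 180 to 240 min and 12.40 ± 0.142 at 20 to 80 min (adjusted p = 0.00518). Its second probe set changed by -0.48 ± 0.0593 (adjusted p = 0.000159 among 20393 probe sets).

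Dnajb9, which encodes the BiP co-chaperone ERdj4, had the steepest fall of the 34. It read 1260 in the untreated array, then 1202, 1323, 905 and 1129 at 20 to 80 min, 933, 903, 921 and 768 at 100 to 160 min, and 815, 687, 860 and 847 at 180 to 240 min. The 60 min array fell below both of its neighbours, but the late window still lay under every early array. The fall was 1.66-fold (-0.73 ± 0.131, adjusted p = 0.000705), and late against early it was 1.40-fold (adjusted p = 0.00818). Without the 200 and 220 min arrays the window difference was -0.43 and missed the threshold (adjusted p = 0.0539). Dnajc3, which encodes p58IPK, a co-chaperone of BiP and inhibitor of PERK, read 613 to 648 at 180 to 240 min, against 668 to 803 at 20 to 80 min and 780 in untreated cells. It fell 1.28-fold (-0.35 ± 0.0619, adjusted p = 0.00061). This rests on 1 of its 5 probe sets: the other four had changes between -0.07 and 0.15, and with all 5 averaged the slope was -0.008 per hour (adjusted p = 0.81). Dnajc3 was chosen for description after its values were seen, as were the genes named below for their values at 60, 200 or 220 min.

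The other chaperones gave no call on the line. Hsp90b1, which encodes GRP94, had a change of -0.32 ± 0.128 (adjusted p = 0.0601). Its 200 and 220 min arrays read 2369 and 2440, against 3262 and 3195 at 180 and 240 min, so those arrays were the lowest of its course. Without them its slope was -0.020 per hour (limma adjusted p = 0.527). The second Hsp90b1 probe set changed by -0.03 ± 0.115 (adjusted p = 0.903 among 20393 probe sets). Calreticulin (Calr) and calnexin (Canx), the lectin chaperones of glycoproteins, changed by 0.02 ± 0.0967 and 0.03 ± 0.0980. Hyou1, Dnajb11, Sdf2l1, Manf and Creld2, all known targets of the response, had changes between -0.06 and 0.13, with adjusted p from 0.19 to 0.547. Manf, for example, read between 1889 and 2147 in all 13 arrays.

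Of the 7 disulfide and proline isomerase genes, 1 fell and 2 rose (42.9% called, against 39.9% of all tested genes). Ero1l (Ero1a), the oxidase that recharges protein disulfide isomerase, read 1731 in the untreated array, then 1765, 1769, 1524 and 1346 at 20 to 80 min, 1355, 1358, 1252 and 1198 at 100 to 160 min, and 1223, 1105, 1134 and 1217 at 180 to 240 min. The 3 arrays up to 40 min were level, and every array from 80 min lay below all earlier ones. It fell 1.60-fold (-0.68 ± 0.0819, adjusted p = 0.000107), and its other probe sets fell by 0.59 and 0.65 on the log2 scale (adjusted p = 0.00102 and 0.000376 among 20393 probe sets). Ero1l is also known as a hypoxia-responsive gene. Of the disulfide isomerases, P4hb changed by 0.00 ± 0.0644, Pdia3 by 0.10 ± 0.0806, Pdia4 by 0.13 ± 0.107 and Pdia6 by 0.14 ± 0.0701, and these 4 did not pass the threshold.

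The proline isomerase genes Fkbp2 and Ppib rose. Fkbp2 read 819 in the untreated array, then 805, 876, 827 and 1000 at 20 to 80 min, 1009, 970, 972 and 1076 at 100 to 160 min, and 955, 992, 1064 and 918 at 180 to 240 min. All 9 arrays from 80 min lay above the 4 up to 60 min, and the fitted rise was 1.22-fold (0.29 ± 0.0894, adjusted p = 0.0176). The call was lost without the untreated array (adjusted p = 0.0661) or the 20 min array (0.0609). Ppib, which encodes cyclophilin B, read 4693 in the untreated array, then 4740, 4847, 4712 and 4839 at 20 to 80 min, 4973, 5008, 4908 and 4782 at 100 to 160 min, and 4961, 5197, 5178 and 5064 at 180 to 240 min. Its rise of 1.09-fold (0.12 ± 0.0343, adjusted p = 0.0108) was the smallest of those that passed. Pdia6 read 1302 in the untreated array, then 1208, 1160, 1154 and 1299 at 20 to 80 min, 1376, 1363, 1317 and 1232 at 100 to 160 min, and 1348, 1299, 1349 and 1349 at 180 to 240 min. It was higher late than early (10.40 ± 0.0266 and 10.25 ± 0.0778, log2 level, SD, 4 arrays each). The limma adjusted p was 0.0487, and the call held in 3 of 13 omissions of 1 array. The second Pdia6 probe set, a dim one, changed by -0.12 ± 0.0616 on the line (adjusted p = 0.203 among 20393 probe sets). With its probe sets averaged the window difference was 0.063 (adjusted p = 0.237).

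Of the 6 ERAD genes 0 passed the linear trend with limma, against 39.9% of all tested genes. Sel1l was the only one of the 6 with an unadjusted p under 0.05. Herpud1, an early target of the response whose product recruits the ubiquitin ligase, read 991 in the untreated array, then 1159, 1154, 1076 and 1018 at 20 to 80 min, 942, 1064, 1060 and 1090 at 100 to 160 min, and 989, 1136, 1036 and 933 at 180 to 240 min. The values moved up and down with no order in time, and the fitted change was -0.09 ± 0.0871 (adjusted p = 0.417). The mannose lectin gene Edem1 changed by -0.01 ± 0.0592, the ligase gene Syvn1 (HRD1) by -0.09 ± 0.0841, and the channel genes Derl1 and Derl2 by -0.04 ± 0.0650 and -0.07 ± 0.0632. Of the 4 Derl1 probe sets, 1 dimmer than the one used changed by -0.28 ± 0.0770 and was called lower (adjusted p = 0.0145 among 20393 probe sets). Sel1l, the partner of HRD1, read between 542 and 668 from 80 min on, against 756, 701, 785 and 621 in untreated cells and at 20, 40 and 60 min. It changed by -0.28 ± 0.122 on the line (adjusted p = 0.0744) and passed only the spline among the planned tests (adjusted p = 0.0339). Its spline call held in 7 of 13 omissions of 1 array and was lost with its probe sets averaged (limma adjusted p = 0.065). The other Sel1l probe sets changed by -0.20, -0.11 and -0.06 on the line and did not pass.

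Of the 7 genes for translocation, signal peptide cleavage and glycosylation, 3 rose and 0 fell (42.9% called, against 39.9% of all tested genes). Sec61b, the small beta subunit of the protein-conducting channel, read 2480 in the untreated array, then 2623, 2591, 2539 and 3063 at 20 to 80 min, 3223, 3025, 2991 and 2962 at 100 to 160 min, and 3034, 3048, 3278 and 3112 at 180 to 240 min. Its level went up between 60 and 80 min and the 9 later arrays all lay above the 4 earlier ones. The rise was 1.26-fold (0.33 ± 0.0724, adjusted p = 0.00237). Ostc, a subunit of the oligosaccharyltransferase, read 1737 in the untreated array, then 1770, 1707, 1706 and 1861 at 20 to 80 min, 1896, 1916, 1899 and 1918 at 100 to 160 min, and 1910, 1922, 2008 and 1921 at 180 to 240 min. It rose 1.15-fold (0.20 ± 0.0486, adjusted p = 0.00498). Spcs2, of the signal peptidase, read 2204 in the untreated array, then 2313, 2230, 2185 and 2336 at 20 to 80 min, 2202, 2439, 2290 and 2376 at 100 to 160 min, and 2406, 2393, 2512 and 2455 at 180 to 240 min. Its rise was 1.12-fold (0.16 ± 0.0474, adjusted p = 0.0143), and its second probe set changed by 0.06 ± 0.0613 (adjusted p = 0.581).

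The other 4 tested genes of this machinery did not pass. Sec61a1, the channel itself, read between 2039 and 2286 (0.07 ± 0.0495, adjusted p = 0.298), and the translocon-associated genes Ssr1 and Ssr3 changed by 0.07 ± 0.0525 and -0.03 ± 0.0888. The dimmest of 3 Ssr1 probe sets changed by 0.27 ± 0.0767 and was called higher (adjusted p = 0.0175 among 20393 probe sets). Sec63, which couples the channel to BiP, had a change of -0.32 ± 0.131 (adjusted p = 0.0632). It read 753 and 708 at 200 and 220 min, against 981 and 919 at 180 and 240 min. A second Sec63 probe set fell by 0.39 on the log2 scale (adjusted p = 0.0178 among 20393 probe sets). Over all 79 probe sets of the 35 genes 6 rose, 13 fell and 60 did not pass, and over all 20393 single-gene probe sets 22.4% passed, 12.2% upward and 10.2% downward. Probe sets of 1 gene are not independent of each other. The probe sets of Hspa5 all fell, as did those of Ero1l. In Dnajc3, Derl1, Sec63, Ssr1, Ppib and Spcs2 only 1 of several passed, so agreement among those that passed cannot be judged there. In Ssr1 the called change of 0.27 stood beside changes of 0.07 and -0.01 that did not pass.

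**Figure D3:**
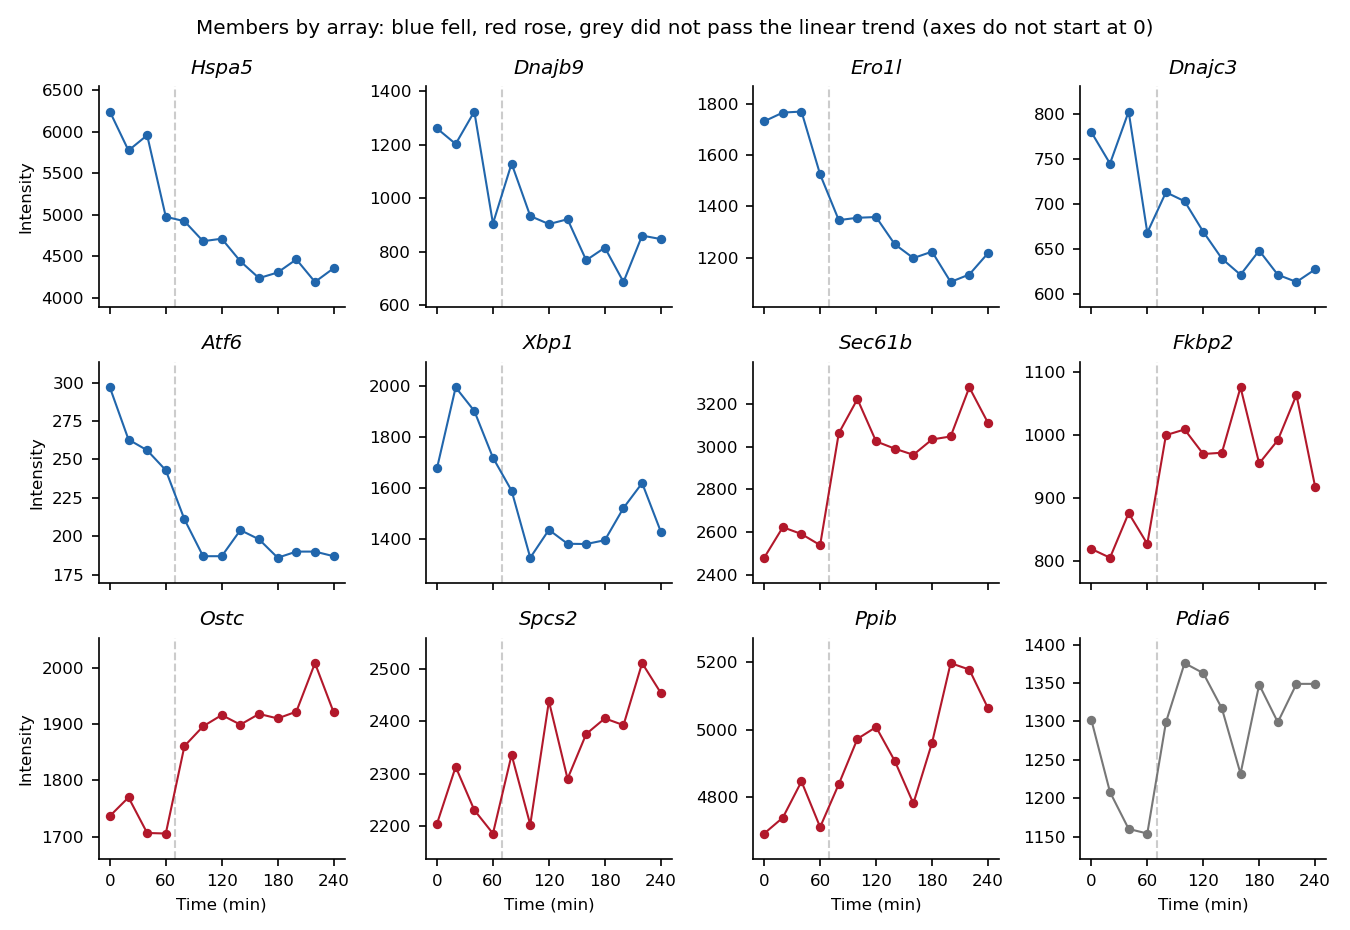
Intensity in each array (points, 1 array per time) against minutes after tamoxifen for the 6 genes that fell (blue), the 5 that rose (red) and Pdia6 (grey). The dashed line marks the interval between 60 and 80 min, and each vertical axis spans its gene's own range.

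The shape of these changes was examined next. Sec61b, Fkbp2, Ostc, Hspa5, Atf6, Xbp1 and Ero1l had 9 arrays from 80 min that did not overlap the 4 up to 60 min, 7 of 34 genes against 22.7% of all tested genes. Such a lack of overlap need not mean that the change came between 60 and 80 min. At 40, 60 and 80 min Hspa5 read 5958, 4975 and 4922, and Atf6 read 256, 243 and 211. A step between 60 and 80 min in place of the line, added after the data were seen, called 14 of the 34, with 7 higher and 7 lower from 80 min (background 41.7%; 21.7% higher and 20.1% lower). It added Creld2, Pdia3 and Pdia6 to the rises (each by 0.14 on the log2 scale; adjusted p from 0.00619 to 0.0188) and Sel1l to the falls (1.20-fold; adjusted p = 0.0053), and Spcs2 missed it (adjusted p = 0.0508). Creld2, Pdia3 and Pdia6 were low at 60 min, before the step (-0.15, -0.27 and -0.09 from the mean of 40 and 80 min, log2 scale). Their untreated values, 571, 3936 and 1302, lay within their ranges from 80 min on. With that step as a block beside the line, 0 of the 34 slopes passed (limma), as against 0.0134% of all tested genes, so the count says little of these genes in particular. At an unadjusted p under 0.05 it was 7 of 34. The share of all tested genes at that level was not counted for this fit, so that count has no background here. The slopes then were -0.085 per hour for Hspa5 (adjusted p = 0.0962), -0.103 for Ero1l and -0.164 for Dnajb9, and 0.020 for Xbp1 and -0.006 for Fkbp2, opposite in sign to their trends. Later arrays lie both after the step and further along the line, and this fit separates step and slope poorly.

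In the 9 arrays from 80 to 240 min alone, 0 of 34 genes passed (background 0.0672%, with 0.0134% higher and 0.0538% lower, limma). At an unadjusted p under 0.05 it was 6 of 34, all downward, against 18.3% of all tested genes in either direction. The downward part of that share was not counted, so the direction has no background here. The 6 were Calr, Hspa5, Ero1l, Dnajc3, Dnajb9 and Hsp90b1, with slopes between -0.069 and -0.146 per hour and adjusted p from 0.122 to 0.215. Calr read between 3469 and 3611 at 180 to 240 min, against 3973 and 4176 at 80 and 100 min and 3615 in untreated cells. Without the 240 min array Hsp90b1 and Ero1l passed (-0.225 and -0.131 per hour, limma adjusted p = 0.0477 each). The share of all tested genes that passed in that fit is not given here. Hsp90b1 then ended on its low 200 and 220 min arrays, which read 2369 and 2440.

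Set against the early window, the late window was lower for 6 of the 34 genes and higher for 4 (background 26.2%; 11.1% lower and 15.1% higher). At an unadjusted p under 0.05 the count was 12 of 34, against 40.1% of all tested genes. The 6 lower were the same genes that fell on the line, and the 4 higher were Sec61b, Pdia6, Ostc and Ppib. Both fits use the same arrays. The windows did not overlap for 9 of 34 genes, against 22.3% of all tested genes. Without the 200 and 220 min arrays 0 of the 34 genes were higher late and 4 lower, against 8.53% of all tested genes (3.6% higher, 4.92% lower), and Dnajb9 and Dnajc3 were no longer called (adjusted p = 0.0539 and 0.118). The spline, which allows a curved course, called 10 of the 34 genes (background 24.9%): the 6 that fell, Sec61b, Fkbp2, Ostc and Sel1l. With 1 array left out the spline call of Ostc held in 3 of 13 omissions, that of Xbp1 in 9 and that of Fkbp2 in 10, and Ostc also lost it with no filter on dim genes or with median centring (adjusted p = 0.0648 and 0.0662). At an unadjusted p under 0.05 it took in 12 of 34, against 36.8%. The early window against the lone untreated array called 0 of 34 genes and 0 of 7436 in all (background 0%, limma), and 2 of the 34, Atf6 and Hspa5, had an unadjusted p under 0.05, as did 112 of all tested genes (1.51%). Atf6 was lower by 0.28 and Hspa5 by 0.21 on the log2 scale in that comparison (adjusted p = 1 for both).

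The 60 min array stood out within the group. In 27 of the 34 genes it lay below both the 40 and the 80 min array, against 34.1% of all tested genes. With each array centred on its median the count was 18 of 34 against 23.8%, and after quantile normalization 24 of 34 against 29.5%. The median distance from the mean of the neighbours was -0.128 over the 34 genes and -0.014 over all tested genes (log2 scale). By role, the dip was present in 10 of 11 chaperone genes, 6 of 7 isomerase genes and 7 of 7 translocation genes, in 3 of 6 ERAD genes and in 1 of 3 sensor genes. Pdia3 read 3334 at 60 min, against 3849 at 40 min and 4218 at 80 min. Calr read 3016 at 60 min, against 3397 and 3973, and P4hb 3457, against 3872 and 4166. In the other pathway genes the dip was present in 49 of 121 (40.5%). By list it was present in 17 of 25 folding enzymes, 11 of 26 genes of the translocon, signal recognition particle and oligosaccharyltransferase, 8 of 20 of ER export, 9 of 25 of ERAD, 4 of 13 regulators and 0 of 12 genes of the PERK and ATF4 branch. This is a single array, so a change of these transcripts at 60 min and a property of that array cannot be told apart.

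**Figure D4:**
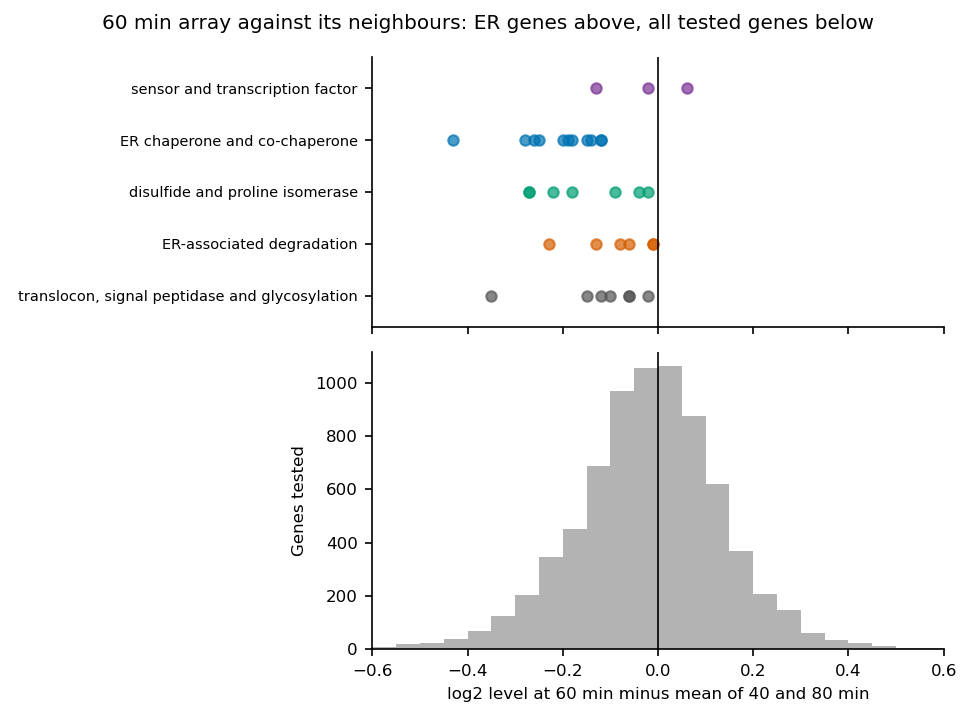
Log2 level at 60 min minus the mean of the 40 and 80 min arrays, for the 34 tested genes by role (upper panel, 1 point per gene) and for all 7436 tested genes (lower panel, histogram). The chaperones lie between -0.43 and -0.12, and the median of all tested genes is -0.014.

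The other genes of the pathway were taken from 6 lists with 121 tested genes, of which 22 rose and 23 fell on the line (37.2% in all), against 22.3% of all tested genes rising and 17.6% falling (39.9% in all). The counts of the lists below are to be set against those shares. In the PERK and ATF4 branch 10 of 12 genes fell and 0 rose, with a median slope of -0.150 per hour. Atf4, the factor favoured by PERK, read 5251 in the untreated array, then 5826, 5745, 5957 and 4452 at 20 to 80 min, and 4520, 4798, 4383 and 4154 at 180 to 240 min, a fall of 1.31-fold (adjusted p = 0.00421). Ddit3 (CHOP) read 428 at 240 min, against 975 in untreated cells, and fell 2.43-fold. Ppp1r15a (GADD34), which reverses the PERK block on translation, fell 2.70-fold and was highest at 40 min, with 2232. Atf3 fell 2.45-fold. ATF4 is also known to be favoured by other kinases, and Atf3 and Ppp1r15a are known to respond to growth factor signals.

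Among the other regulators 3 of 13 rose and 3 fell. Atf6b, the ATF6 paralogue, rose 1.21-fold (adjusted p = 0.00549), Nfyb, a subunit of NF-Y, 1.29-fold and Creb3l2 1.30-fold. Creb3, Yy1 and Traf2 fell 1.25-fold, 1.19-fold and 1.15-fold. Of 25 other folding enzymes 3 rose and 2 fell: malectin (Mlec) rose 1.55-fold, the peroxiredoxin Prdx4 1.42-fold and the collagen chaperone Serpinh1 1.26-fold, while Nucb2 fell 1.49-fold and Dnajc1 1.22-fold. Of 25 other ERAD genes 2 rose and 6 fell, with Edem2 (1.21-fold) and Stub1 (1.14-fold) higher and Ube2j1 (1.28-fold), Fam8a1 (1.27-fold) and Ubxn4 (1.26-fold) lower.

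Of 26 other genes of the translocon, signal recognition particle and oligosaccharyltransferase, 6 rose and 2 fell. Tusc3 rose 1.26-fold, Ssr2 1.25-fold and Rpn2 1.17-fold, and Sec62 and Sec61a2 fell 1.61-fold and 1.17-fold. Sec62, like its partner Sec63, was low at 200 and 220 min, with 1039 and 893 against 1301 and 1399 at 180 and 240 min. Of 20 genes of ER export and retrieval 8 rose and 0 fell. The coat gene Sec24d rose 1.42-fold (adjusted p = 0.000129), the lectin gene Lman2 1.26-fold and the KDEL receptor gene Kdelr2, which returns BiP and other chaperones to the ER, 1.21-fold. That list's median slope was 0.035 per hour, against 0.005 over all tested genes.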

How the data were processed

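Total RNA was hybridised to 13 Affymetrix arrays, 1 per time, after Trizol extraction and biotin labelling, per the labels' protocols. Each of 22690 probe sets has a deposited linear intensity per array. How the authors summarised and scaled these is not stated in the labels. The medians of the 13 arrays ranged from 237.4 to 251.5, so changes are relative to the bulk of genes. Precision depends on how many arrays there are. The deposited intensities were analysed as log2(intensity + 16) without further normalization. Of the probe sets, 20393 had 1 gene in the platform table, 691 several and 1606 none. Symbols of 20364 were updated through Entrez identifiers with a RefSeq table (GRCm38.p6). Testing left out genes under the 40th percentile of mean log2 level (7.83). The models used limma 3.58.1 under R 4.3.3 (eBayes with an intensity trend, two-sided, Benjamini-Hochberg over 7436 genes): a line in hours, a natural spline with 3 degrees of freedom, windows of 4 neighbouring arrays that stand in for replicates, and a line from 80 min. For the untreated array, of which there is 1, the spread of the other arrays was assumed. The line and window fits were also run on simulated data, with no outcome given here, so that run is no support for the calls. The genes, lists, tests and the rule for named genes were chosen with earlier results of these data known. The rule took a fixed set (Hspa5, Dnajb9, Xbp1, Atf6, Ern1, Eif2ak3, Herpud1), the largest changes past each threshold, and up to 3 genes per direction from each other pathway list. Filters, pseudocounts, normalizations, probe set averaging, moderation, array weights, time scale, spline flexibility and omitted arrays were varied.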

Additional observations from a re-analysis of the deposited data

Results flagged for a closer look

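In each of 3 windows of 4 arrays, the highest or lowest array was compared with the other three for the 35 genes. Of 105 such groups 10 had an array further off than Dixon's critical value allows, and chance flags about 1 in 20. At 100 min, Sdf2l1 read 711 (the other arrays of its window 614 to 628) and Pdia4 592 (456 to 472). At 120 min, Sel1l read 641 (542 to 558) and Sec63 984 (875 to 882). Dnajb9 read 768 at 160 min (903 to 933), Pdia6 1299 at 200 min (1348 to 1349) and Ssr1 2018 at 80 min (1972 to 1974). At 220 min, Manf read 2147 (1985 to 2007), Edem1 808 (752 to 756) and Ostc 2008 (1910 to 1922). Of these, Dnajb9 and Ostc passed the linear trend, and both calls held in 13 of 13 omissions of 1 array. Neighbouring times are not replicates.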

How the results depend on the processing

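On the linear trend Hspa5, Dnajb9, Ero1l, Atf6, Dnajc3, Sec61b, Ostc, Spcs2 and Ppib kept their calls in 13 of 13 omissions of 1 array, and Xbp1 and Fkbp2 in 11. Late against early, the count of genes higher late was 4; it was 2 with no filter on dim genes, 1 with median centring, 9 with array weights (whose estimation stopped before convergence), 0 without the 200 and 220 min arrays, 7 with an early window of 20 to 60 min, and 0 to 7 when 1 array was left out (0 without the 20, 40 or 220 min array, 1 without 60 min, 7 without 80 min, 2 without 200 or 240 min). Without the 200 and 220 min arrays 2 genes rose on the line, against 5 with them. The spline called 10 genes, 21 with array weights and 6 to 12 with 1 array left out (6 without the 20 or 160 min array). The line from 80 min called 0 falls, and 0 to 2 with 1 array left out, the 2 being without the 240 min array. With a block for the arrays from 80 min on (the step), 0 genes rose and 0 fell; the slopes of Xbp1 and Fkbp2 were reversed (0.020 and -0.006 per hour; adjusted p = 0.77 and 0.91). The cause of these differences was not tested. Some of these settings use fewer arrays or test more genes. Shares of all tested genes are given above for the fits without the 200 and 220 min arrays and with the step. For the other settings they are not given, so a changed count there cannot be told apart from a shift over all tested genes. The other settings moved no count by over 1.5 times. Of 403 values of single genes with 1 array left out 348 kept their call and 55 lost it, and of 401 under other settings 363 kept it, 36 lost it and 2 reversed. The median residual SD about the line was 0.0873 (log2). What could be seen differed between genes with their SE, and small changes may have been missed. Over 4 h on the line Ppib passed with 0.12 ± 0.0343, while Pdia6 did not with 0.14 ± 0.0701. No paired analysis was possible because each time has 1 array. Cells without the fusion and a course without tamoxifen were not analysed here.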

Other observations

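The genes whose course over the 13 arrays was most like that of Hspa5 were the protease gene Ctsl (cathepsin L; Pearson r = 0.986), the Golgi gene Tgoln1 (0.980), Retreg1 (0.975), which encodes a receptor for autophagy of the ER, the copper pump gene Atp7a (0.974) and the protocadherin gene Pcdh1 (0.974). These share arrays and scaling and are given as a description. Among the 34 genes, Ero1l and Dnajc3 (r = 0.95 each), Atf6 (0.92) and Dnajb9 (0.89) came closest to Hspa5, and Ostc (-0.87) and Sec61b (-0.84) ran most opposite to it.

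Beside the 8 genes of the list, 5 tested genes had an exact ERSE in the promoter window: Derl3, Adcy3, Alg12, Pan2 and Spats2l. Pan2 rose by 0.28 ± 0.0553 and Adcy3 by 0.27 ± 0.101 on the log2 scale over 4 h (SE, 13 arrays; limma adjusted p = 0.0014 and 0.0475). Derl3, an ERAD channel gene, changed by -0.14 ± 0.0875, Alg12, a mannosyltransferase gene, by 0.24 ± 0.112 and Spats2l by 0.20 ± 0.0786 (adjusted p = 0.218, 0.105 and 0.0588). Of the 13 tested genes with the motif 2 fell and 2 rose, against 17.6% of all tested genes falling and 22.3% rising.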
